A study of Rattus norvegicus with 8 samples.

Results

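The collagen genes were followed in liver RNA of rats on a high-fat or a normal diet. Members were all probes, controls left out, whose gene name reads Col, a number, a and a number. They came to 91 probes of 38 genes, out of 46883 probes and 25512 gene names on the array. Of these genes 11 code for fibrillar collagens, 5 for the collagen IV chains of basement membranes and 22 for other collagens. The name Col4a3bp, which belongs to a ceramide transfer protein and not to a collagen, was left out with its 2 probes. All 8 samples were livers of male Sprague Dawley rats, an outbred laboratory strain, labelled with a weight of 180 to 200 g. By the labels 4 samples are from rats given a 60% high-fat diet for 12 weeks, free to eat at will, and 4 from rats on a normal diet for as long, called control here. The labels name no other treatment and do not say when the weight was taken or whether the 8 samples are 8 animals, and a p-value therefore covers only the spread among the samples, which may be technical. The series asks which factors accompany the insulin resistance that a high-fat diet brings on.

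Collagens are the main structural proteins of the extracellular matrix. Each molecule is a helix of 3 chains, and glycine, the smallest amino acid, recurs along every helical stretch at a fixed spacing. Fibrillar collagens I, III and V form the rope-like fibrils of the portal tracts and the space of Disse, the gap between hepatocytes and sinusoids. Collagen IV forms the sheet of basement membranes, collagen VI makes beaded microfilaments, and fibril-associated collagens such as XII and XIV sit on the surface of fibrils. In the liver, stellate cells and portal fibroblasts make most fibrillar collagen, sinusoidal endothelial cells add collagen IV, and a gain of collagens I and III is the hallmark of fibrosis.

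The array read each transcript through probes of 60 bases. The probes below belong to genes on which the results turn and are shown for the glycine repeat of the helix, which most of them hold, each 5′ to 3′ as in the files. Col13a1 probe A_64_P197763, with a run of only 2, is shown beside the other probe of its gene. Capitals mark the longest run of GGN codons spaced 9 bases apart, searched on the given strand, GGN being the codon of glycine.
Col13a1 probe GT_Rn_GE_00128194: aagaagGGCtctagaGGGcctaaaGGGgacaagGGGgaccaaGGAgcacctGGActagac
Col13a1 probe A_64_P197763: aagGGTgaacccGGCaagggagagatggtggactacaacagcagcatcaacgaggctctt
Col14a1 probe A_64_P093194: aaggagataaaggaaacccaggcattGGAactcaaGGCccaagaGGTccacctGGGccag
Col4a1 probe A_64_P293606: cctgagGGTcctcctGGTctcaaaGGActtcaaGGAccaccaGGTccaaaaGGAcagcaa
Col4a4 probe GT_Rn_GE_00023362: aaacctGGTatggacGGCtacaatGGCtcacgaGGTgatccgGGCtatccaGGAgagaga
A run of at least 6 such codons was found in 4 of the 91 collagen probes (4.4%) and in 7 of the 46792 other probes (0.015%). Despite the shared repeat, no stretch longer than 13 bases was common to probes of 2 different collagens. Within a gene, probes of Col6a3, Col18a1 and Col22a1 overlapped by 20 bases or more, so these are not separate measurements. All 38 names are current rat symbols in RefSeq (GRCr8), and the 44 probes whose accession matched there carried the same symbol.

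Values are normalized log2 intensities, on which 0 is each array's 75th percentile over probes that cleared background on every array. Signals of different probes depend on their sequence, so levels are compared between arrays for 1 probe and never between probes. The share of probes well above background ran from 50.4% to 71.9% over the arrays, with control replicate 1 and high-fat replicate 1 the dimmest. Hepatocyte markers were well above background, with 6 of 6 tested, and a mean normalized log2 intensity of 4.78 to 5.05 in control and 4.79 to 5.27 in high-fat samples. The arrays lay on 1 slide, with 2 of each diet in each of 2 rows, and changes within each row are given beside the pooled ones. In whole liver, fewer cells of a type and less RNA per cell cannot be told apart.

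Of the 38 collagens, 21 were well above background on all 8 arrays by at least 1 probe. A probe was tested if it was well above background on at least 4 of the 8 arrays, which left 56 probes and 30 genes, each gene standing for its probe with the highest mean. The 8 genes left untested were Col4a3, Col7a1, Col8a2, Col9a3, Col10a1, Col11a1, Col17a1 and Col23a1, and 19 of the 91 probes cleared background on no array. None of the 30 tested collagens passed an adjusted p of 0.05 by limma, against 0.877% of all 18596 genes (0.35% higher and 0.527% lower). By the probe that stood for the gene, none changed by more than 1 on the log2 scale, against 3.25% of all genes. Other probes of Col14a1 and Col12a1 gave 1.05 and 1.22. At an unadjusted p under 0.05 there were 2 of 30 (6.67%), against 15.6% of all genes. The same 2, Col14a1 and Col13a1, had groups that did not overlap, as in 11.1% of all tested genes, and both were higher, as in 4.85% of all. By single probes, 1 of 56 passed (1.79%), a probe of Col14a1, against 0.907% of all probes. At an unadjusted p under 0.05 there were 7 of the 56 probes. Among them were other probes of Col4a1 and Col5a1 (unadjusted p = 0.027 and 0.0495 by limma). The share of all probes at that level was not counted.

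Across the tested collagens 13 log2 changes were positive and 17 negative. Their median was -0.032, beside 0.0032 over all genes tested. The median was 0.048 for the 10 fibrillar, 0.094 for the 4 basement membrane and -0.097 for the 16 other collagens. Those of the first slide row were -0.033, -0.23 and -0.13 and those of the second 0.20, 0.48 and 0.13 in the same order, so all 3 medians changed sign between rows. For 24 of the 30 genes the 95% interval of the change lay within a 2-fold change either way. The half-width of that interval had a median of 0.52 on the log2 scale and ran from 0.28 for Col2a1 to 2.12 for Col24a1, a dim gene.

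**Figure D1:**
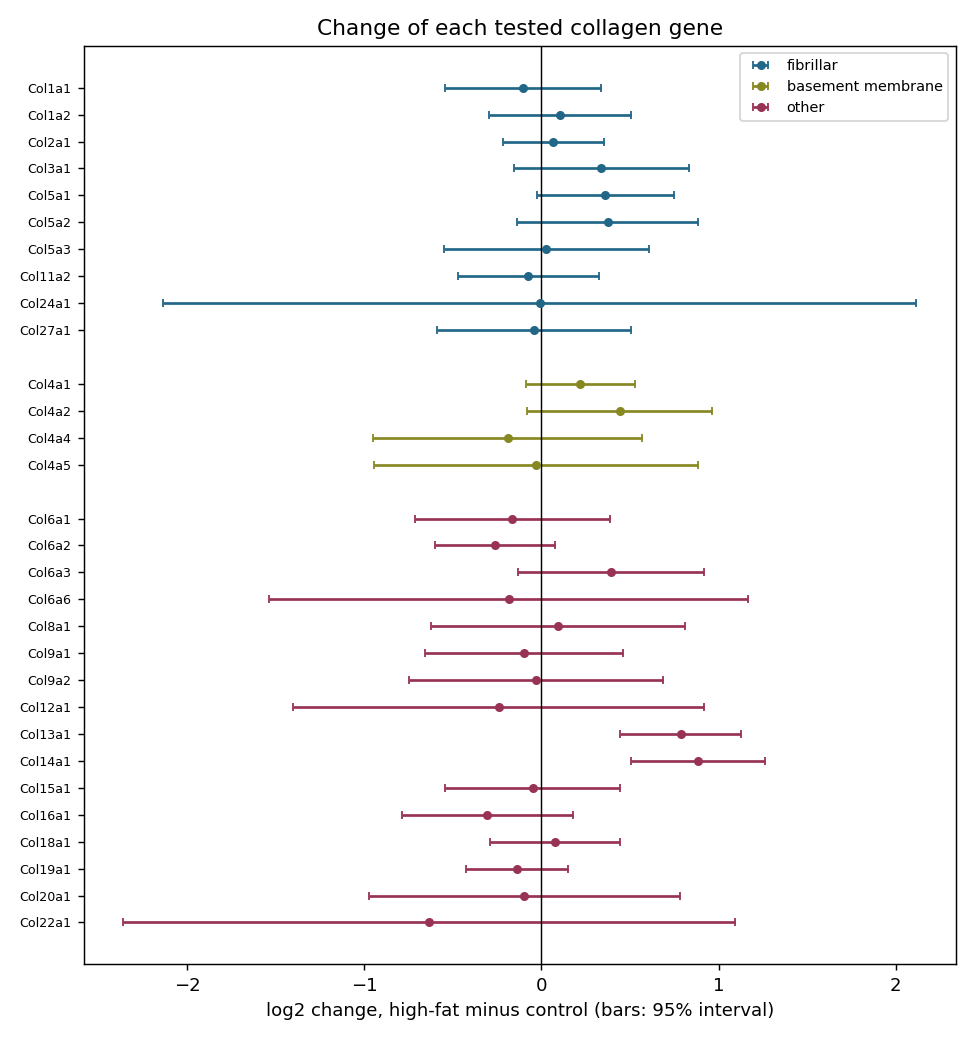
Log2 change, high-fat minus control, of each of the 30 tested collagens, with points for the estimate and bars for the 95% interval, coloured by class. Every interval but those of Col13a1 and Col14a1 spans 0, and the points of the fibrillar class run from -0.10 to 0.37.

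Among fibrillar collagens none of the 10 tested passed the threshold, 6 changes were positive and 4 negative, and they ran from -0.10 to 0.37. Col1a1 and Col1a2 code for the chains of collagen I, which joins 2 alpha 1 chains and 1 alpha 2 chain. Col3a1 codes for collagen III, the reticulin of the liver, and Col5a1 and Col5a2 for collagen V, which starts fibrils and limits their width.

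The Col1a1 probe at chr10:83637956-83638015 on rn4 read -2.22, -1.86, -2.22 and -2.49 in control replicates 1 to 4 and -2.38, -2.61, -1.91 and -2.31 in high-fat replicates 1 to 4. The groups overlapped over nearly their whole range, with control replicate 2 and high-fat replicate 3 highest. The log2 change was -0.10 with a 95% interval from -0.54 to 0.33 (adjusted p = 0.85 by limma), and -0.45 and 0.24 in slide rows 1 and 2. Its other probes gave 0.27 and -0.19, so the probes differed in sign and none passed.

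For Col1a2, read at chr4:29428206-29428265, the values were 0.13, 0.13, -0.087 and 0.013 in control replicates 1 to 4 and -0.11, -0.052, 0.61 and 0.16 in high-fat replicates 1 to 4. One array, high-fat replicate 3, stood above the others, and the remaining high-fat values lay within or just outside the control range. The change was 0.10 with a 95% interval from -0.30 to 0.51 (adjusted p = 0.84 by limma), with -0.21 and 0.42 in the rows, and its other probe gave 0.40.

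Col3a1, read at chr9:44317465-44317524, had 0.99, 1.22, 0.99 and 0.59 in control replicates 1 to 4 and 1.09, 1.03, 1.83 and 1.17 in high-fat replicates 1 to 4. Again high-fat replicate 3 was highest, 3 high-fat arrays lay within the control range, and control replicate 4 was lowest. The change was 0.34 with a 95% interval from -0.16 to 0.83 (adjusted p = 0.52 by limma), or 1.26-fold, with -0.041 and 0.71 within the rows and 0.39 by the second probe. Without high-fat replicate 3 it was 0.15 and without control replicate 4 it was 0.22.

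The fibrillar gene with the smallest p was Col5a1, at -3.94, -3.33, -3.53 and -3.62 in control replicates 1 to 4 and -2.97, -3.46, -3.28 and -3.26 in high-fat replicates 1 to 4. Its groups overlapped at control replicate 2, which was above high-fat replicate 2. The change was 0.36 with a 95% interval from -0.028 to 0.75 (adjusted p = 0.36 by limma), the rows gave 0.42 and 0.30, and the probe at chr3:6970963-6971022 gave 0.32. Its partner Col5a2, read at chr9:44375533-44375592, was at -3.51, -2.88, -3.68 and -3.56 in control replicates 1 to 4 and -3.27, -3.24, -2.60 and -3.03 in high-fat replicates 1 to 4. Control replicate 2 and high-fat replicate 3 were again the high arrays of their groups. The change was 0.37 with a 95% interval from -0.14 to 0.88 (adjusted p = 0.49 by limma), with -0.06 and 0.81 in the rows and -0.071 by the other probe. Without high-fat replicate 3 it was 0.23, and as the mean of both probes 0.15. The remaining tested fibrillar genes, Col2a1, Col5a3, Col11a2, Col24a1 and Col27a1, had changes from -0.073 to 0.067 by the probes that stood for them. For Col11a2, at -0.073, another tested probe gave 0.21, and the 95% interval of Col24a1 ran from -2.13 to 2.11. Col2a1 and Col11a2 are best known from cartilage, where collagens II and XI form the fibrils.

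**Figure D2:**
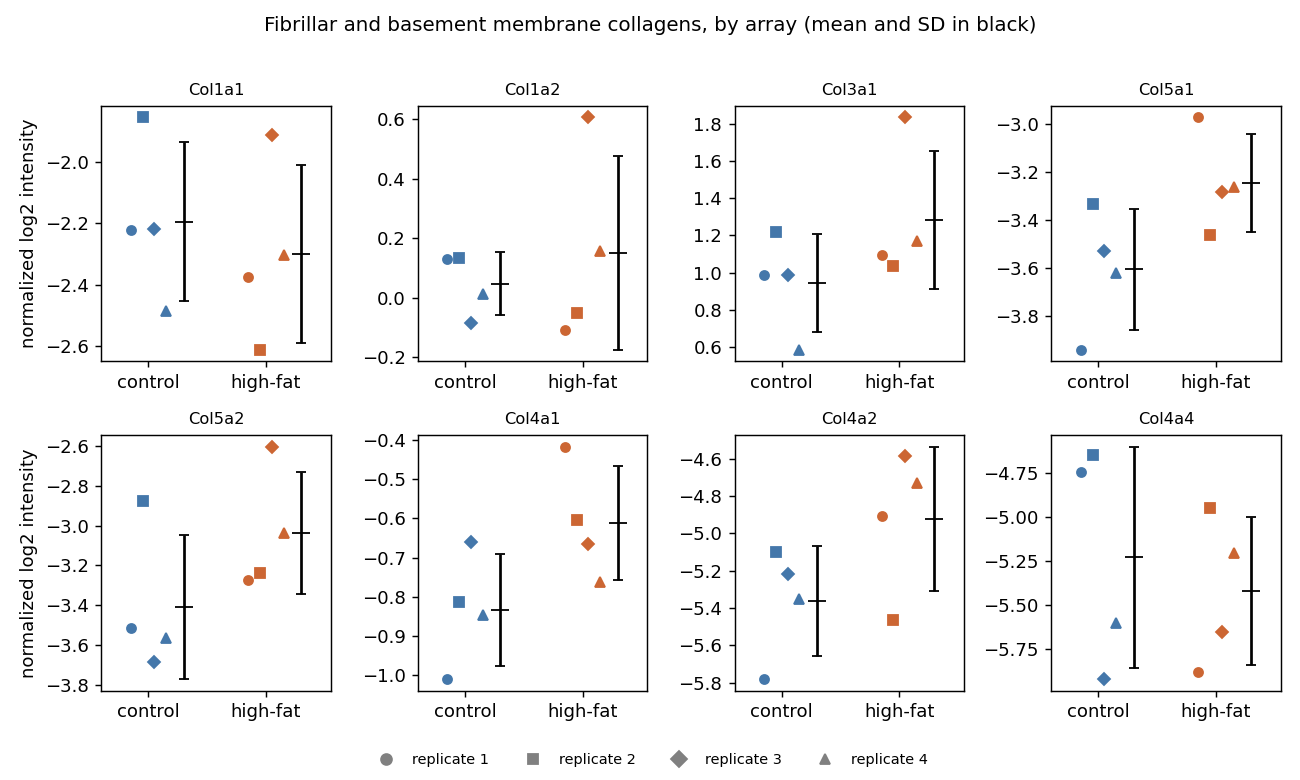
Normalized log2 intensity on each array for 5 fibrillar and 3 basement membrane collagens, each panel with its own axis, symbols for replicate numbers and black bars for the mean and SD of the 4 arrays of a diet. The groups overlap in all 8 panels, and high-fat replicate 3 is the highest high-fat array for Col1a1, Col1a2, Col3a1, Col5a2 and Col4a2.

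Levels of collagen chains were compared across the 8 samples, in 6 pairs of genes. Col1a2 and Col3a1 had Pearson's r = 0.81 (n = 8, exact two-sided permutation p = 0.043, adjusted over the pairs 0.14) and Spearman's rho = 0.62 (exact permutation p = 0.11, adjusted 0.36). Without the 2 arrays farthest from the median of Col1a2, both high-fat, r was 0.42. Leaving out the extreme values narrows the range, so this fall cannot show whether the relation rests on those arrays. Col1a1 had r = 0.66 with Col1a2 and 0.68 with Col3a1 (exact permutation p = 0.070 and 0.062, both 0.14 adjusted; rho = 0.50 and 0.52, exact permutation p = 0.22 and 0.20, both 0.36 adjusted), and 0.32 and 0.29 without control replicate 2 and high-fat replicate 3. After each group's mean was taken off, these 3 pairs had r = 0.82, 0.75 and 0.94 in the order given. The pairs Col4a1 with Col4a2 (r = 0.51, rho = 0.33), Col6a1 with Col6a2 (r = 0.30, rho = 0.48) and Col1a1 with Col4a1 (r = -0.22, rho = -0.26) had exact permutation p of 0.20, 0.49 and 0.60 for r and 0.43, 0.24 and 0.54 for rho (adjusted 0.29, 0.58 and 0.60 for r, and 0.51, 0.36 and 0.54 for rho). None of the 6 passed after adjustment, and a slide row holds too few arrays for a value of its own.

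No basement membrane collagen passed the threshold. Of the 5 genes 4 were tested, with 2 positive and 2 negative changes from -0.19 to 0.44, and Col4a3 was not well above background on enough arrays. Col4a1 and Col4a2 code for the chains of the common collagen IV of vessels and sinusoids, while Col4a3, Col4a4 and Col4a5 make the form known from the kidney glomerulus.

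Col4a1, read at chr16:83157776-83157835, was at -1.01, -0.81, -0.66 and -0.85 in control replicates 1 to 4 and -0.42, -0.61, -0.66 and -0.76 in high-fat replicates 1 to 4. The highest 2 arrays were high-fat and the lowest 3 control, with control replicate 3 among the high-fat values. Its change was 0.22 with a 95% interval from -0.085 to 0.53 (adjusted p = 0.49 by limma), and 0.40 and 0.04 within the rows. A second probe gave 0.54 (adjusted p = 0.26 by limma), and the dim probe shown above -0.0058.

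Col4a2 read -5.78, -5.10, -5.22 and -5.35 in control replicates 1 to 4 and -4.91, -5.47, -4.59 and -4.73 in high-fat replicates 1 to 4. High-fat replicate 2 lay within the control range and the other high-fat arrays above it. The change was 0.44 with a 95% interval from -0.079 to 0.96 (adjusted p = 0.41 by limma), the rows gave 0.25 and 0.63, and the probe at chr16:82900301-82900360 gave 0.15. For Col4a4, whose probe is shown above, the values were -4.75, -4.65, -5.92 and -5.60 in control replicates 1 to 4 and -5.88, -4.95, -5.65 and -5.20 in high-fat replicates 1 to 4. The control arrays split into 2 high ones, both in slide row 1, and 2 low ones, both in slide row 2. Their spread was wider than the difference between the diet means, and the high-fat arrays did not split by row. Its change was -0.19 with a 95% interval from -0.95 to 0.57 (adjusted p = 0.84 by limma), with opposite signs in the rows, -0.72 and 0.33.

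Among the other collagens Col14a1 and Col13a1 had the smallest p of the family. Col14a1 codes for collagen XIV, a fibril-associated collagen that binds collagen I fibrils and regulates how they join. Col13a1 codes for collagen XIII, a collagen that spans the cell membrane at sites of adhesion to the matrix. Both were higher in all 4 high-fat samples than in any control sample by the probe that stood for the gene, and neither passed the threshold by that probe.

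Col14a1 was read by 3 tested probes. That at chr7:92032865-92032924 on rn4, which stood for the gene, gave -0.083, -0.41, 0.25 and -0.33 in control replicates 1 to 4 and 0.81, 0.63, 0.83 and 0.69 in high-fat replicates 1 to 4. The lowest high-fat array was above the highest control array, and the high-fat arrays lay close together. The means were -0.14 ± 0.30 on the control diet and 0.74 ± 0.097 on the high-fat diet (SD, n = 4 per group), and the change between them 0.88 with a 95% interval from 0.50 to 1.26, or 1.84-fold (adjusted p = 0.055 by limma). The probe GT_Rn_GE_00142932, with no position in the files, gave -1.64, -1.68, -1.37 and -2.10 in control replicates 1 to 4 and -0.90, -0.70, -0.47 and -0.52 in high-fat replicates 1 to 4. These groups did not overlap either, and Col14a1 rose by 1.05 on the log2 scale by this probe, with a 95% interval from 0.63 to 1.47, or 2.07-fold (adjusted p = 0.046 by limma). The dim probe at chr7:92028347-92028406, also shown above, gave -5.82, -5.79, -4.85 and -5.76 in control replicates 1 to 4 and -4.76, -4.77, -5.39 and -4.67 in high-fat replicates 1 to 4. Here control replicate 3 was close to 3 of the high-fat arrays and above high-fat replicate 3, so the groups overlapped, and the change was 0.66 with a 95% interval from 0.059 to 1.25 (adjusted p = 0.28 by limma).

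All 3 Col14a1 probes were higher in both slide rows, with 0.96 and 0.80, 0.86 and 1.24, and 1.03 and 0.28 in the order given. The call of the second probe was lost when any 1 array was left out (adjusted p from 0.064 to 0.12), and in 13 of 20 alternatives in all, while its change stayed between 0.92 and 1.16. Cells known to make collagen XIV in the liver are stellate cells and portal fibroblasts. Stellate cell markers (12 of 12 tested, none absent) had a summed linear level of 10.2 to 16.7 in control and 15.8 to 24.3 in high-fat samples, with Reln past the threshold, Lrat well above background on 0 control and 4 high-fat arrays, and Des at -0.70 and Acta2 at -0.52 not past it. Portal fibroblast markers (5 of 6 tested, none absent) had 0.248 to 0.374 in control and 0.157 to 0.283 in high-fat samples, with none past the threshold. The part of either cell type in the Col14a1 values was not tested.

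Col13a1 was read by 2 tested probes. The probe GT_Rn_GE_00128194 shown above gave -3.45, -3.85, -3.41 and -3.28 in control replicates 1 to 4 and -2.76, -2.59, -2.77 and -2.72 in high-fat replicates 1 to 4. No control array reached the lowest high-fat array, and the high-fat arrays spread over less than the control arrays. The means were -3.50 ± 0.25 on the control diet and -2.71 ± 0.082 on the high-fat diet (SD, n = 4 per group), and the change between them 0.79 with a 95% interval from 0.44 to 1.13, or 1.72-fold (adjusted p = 0.057 by limma). The dimmer probe at chr20:29236775-29236834, also shown above, was well above background on 2 control and 4 high-fat arrays and gave 0.67 (adjusted p = 0.37 by limma), with overlapping groups. Within the rows the first probe gave 0.97 and 0.60 and the second 1.01 and 0.32.

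**Figure D3:**
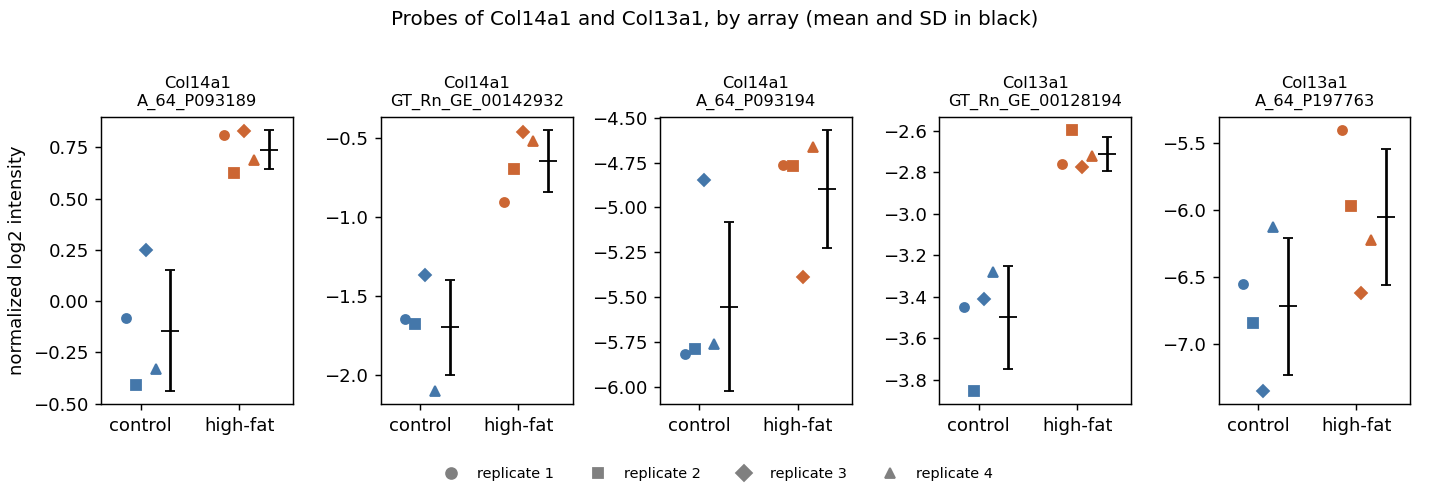
Normalized log2 intensity on each array by the 3 tested probes of Col14a1 and the 2 of Col13a1, each panel with its own axis, symbols for replicate numbers and black bars for the mean and SD of 4 arrays. The diets are apart for the first 2 Col14a1 probes and the first Col13a1 probe, and overlap for the dimmest probe of each gene.

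No other collagen of this class passed the threshold by any probe. Collagen VI, a microfilament of the space around cells, had 4 tested chains with a median change of -0.17 and none past the threshold. Col6a2, read at chr20:12464424-12464483, had the smallest p of them, with -0.91, -0.68, -0.75 and -0.77 in control replicates 1 to 4 and -1.11, -1.35, -0.82 and -0.89 in high-fat replicates 1 to 4. High-fat replicates 1 and 2 were below every control array and the other high-fat arrays within the control range. The change was -0.26 with a 95% interval from -0.60 to 0.078 (adjusted p = 0.46 by limma), with -0.43 and -0.09 within the rows and -0.16 without high-fat replicate 2. Col6a1 gave -0.16, and 0.11 by its second probe. Col6a3 gave 0.39 (adjusted p = 0.48 by limma), and a second, overlapping probe 0.43 (adjusted p = 0.18 by limma) with no overlap between diets, both being dim. Of the 8 tested fibril-associated collagens 7 had a negative change by the probe that stood for the gene, where 9205 of all 18596 genes did. The median of the 8 was -0.12, with Col14a1 the only positive one. The 95% interval of each of the 7 spanned 0. Among them Col16a1, at chr5:149126166-149126225, gave -0.30 and -0.40 by its 2 probes, and Col12a1 gave -0.24 and 1.22, with intervals of -1.40 to 0.92 and -0.61 to 3.04.

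Col18a1 codes for collagen XVIII, a basement membrane proteoglycan that hepatocytes make in quantity and whose end fragment is endostatin. It had 4.84, 4.61, 4.41 and 4.39 in control replicates 1 to 4 and 4.75, 4.47, 4.45 and 4.89 in high-fat replicates 1 to 4, with the diets fully interleaved. The change was 0.076 with a 95% interval from -0.29 to 0.44 (adjusted p = 0.88 by limma), and its 4 probes, 2 of which overlap in sequence, gave changes from 0.048 to 0.20. Col15a1, of the same family, gave -0.049 and Col8a1, a short-chain collagen of vessel walls, 0.094. Over all collagens, 21 had at least 2 tested probes, and in 13 of them the probes shared 1 sign.

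Proteins that make, join, bind and break down collagen were followed in 5 lists, and 3 genes passed, all higher on the high-fat diet, as 0.35% of all genes were. One of them, Lox, was tested only because it was well above background on the high-fat arrays, so its call is no support for a count over the lists, and Loxl2 and Mmp2 are the 2 others. At an unadjusted p under 0.05 there were 7 of 25 genes of synthesis and cross-linking, where 15.6% of all genes were. Lox is among these 7, so that count is no support either. In the same order of lists there were 3 of 13 of processing and assembly, 1 of 6 receptors, 4 of 13 collagenases and inhibitors and 1 of 16 of profibrotic signalling. In the list of synthesis and cross-linking 2 of 25 tested genes passed, Lox included, and 0 fell, with a list median of -0.073. They were Lox and Loxl2, oxidases that cross-link collagen fibres. Loxl2 was at -4.24, -4.10, -4.24 and -4.56 in control replicates 1 to 4 and -3.45, -3.07, -2.87 and -3.42 in high-fat replicates 1 to 4. Its groups did not overlap, and it rose by 1.08 on the log2 scale with a 95% interval from 0.68 to 1.48 (adjusted p = 0.039 by limma). This call was lost when any 1 array was left out and in 13 of 21 alternatives in all. Lox read -7.50, -8.09, -8.43 and -8.40 in control replicates 1 to 4 and -2.73, -5.28, -4.63 and -2.63 in high-fat replicates 1 to 4, well above background on no control array and on all 4 high-fat arrays. With a bound set for the control arrays, Lox was 18.5-fold higher in the high-fat group, a figure that holds for this background correction only. Its fitted p (adjusted p = 0.027 by limma) sets high-fat values against control values not above background. That call was lost in 7 of 15 alternatives: without any 1 control array (adjusted p from 0.058 to 0.082), with no filter, with the replicate block, and after normexp background correction, where the log2 change was 1.76. For that bound each control array entered with its Lox signal or, if higher, the dimmest signal still well above background there. P4ha2, a prolyl hydroxylase that stabilises the helix, gave 0.74 (adjusted p = 0.075 by limma) with groups apart, and Serpinh1, the chaperone of procollagen, 0.25 (adjusted p = 0.46 by limma).

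In the list of collagenases and inhibitors 1 of 13 rose and 0 fell, with a median of -0.034. Mmp2, a gelatinase that also cleaves collagen IV, was at -4.02, -3.90, -4.02 and -3.82 in control replicates 1 to 4 and -2.52, -2.54, -2.0 and -2.52 in high-fat replicates 1 to 4. The groups lay far apart, and it rose by 1.54 on the log2 scale, with a 95% interval from 1.19 to 1.90 (adjusted p = 0.015 by limma). The call was lost in 3 of 21 alternatives, with no filter on dim probes, with the replicate block and without the 2 dimmest arrays (adjusted p of 0.059, 0.073 and 0.083 by limma), and held with any 1 array left out. Timp2, an inhibitor that binds this enzyme, was at 2.01, 1.95, 2.01 and 1.68 in control replicates 1 to 4 and 1.26, 1.47, 1.31 and 0.94 in high-fat replicates 1 to 4. All high-fat arrays were below all control arrays, with a change of -0.67 with a 95% interval from -1.02 to -0.32 that did not pass (adjusted p = 0.089 by limma).

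Of the 13 tested genes of procollagen processing and fibril assembly none passed. Thbs2, a matricellular thrombospondin, read -6.08, -5.91, -5.92 and -6.07 in control replicates 1 to 4 and -5.03, -5.42, -5.01 and -5.49 in high-fat replicates 1 to 4. The groups did not overlap, and the change was 0.76 (adjusted p = 0.065 by limma). Its probe was dim, well above background on 3 control and 4 high-fat arrays. Over 20 alternatives the change ran from 0.25 to 0.84 (adjusted p from 0.052 to 0.64 by limma). Tll1, a procollagen C-proteinase, read -4.20, -4.71, -4.67 and -5.16 in control replicates 1 to 4 and -4.28, -4.18, -4.14 and -4.16 in high-fat replicates 1 to 4. The high-fat arrays lay close together and control replicate 1 among them, with a change of 0.50 (adjusted p = 0.28 by limma). Of the 6 collagen receptors none passed. Mrc1, the mannose receptor, read -2.07, -2.73, -2.26 and -2.11 in control replicates 1 to 4 and -1.79, -1.89, -1.79 and -1.29 in high-fat replicates 1 to 4. All high-fat arrays were above all control arrays, with a change of 0.60 (adjusted p = 0.20 by limma). The integrin chain Itga10 read -6.02, -6.26, -6.04 and -6.19 in control replicates 1 to 4 and -6.31, -6.10, -6.07 and -6.47 in high-fat replicates 1 to 4. These groups overlapped, with a change of -0.11 (adjusted p = 0.77 by limma). In profibrotic signalling 0 of 16 passed. Smad4, the shared partner of TGF-beta signalling, read -5.79, -5.50, -5.03 and -5.28 in control replicates 1 to 4 and -4.75, -4.83, -4.92 and -4.71 in high-fat replicates 1 to 4. Its groups did not overlap, and the change was 0.60 (adjusted p = 0.16 by limma). This dim probe was well above background on 3 control and 4 high-fat arrays. Over 20 alternatives the change ran from 0.22 to 0.72. The ligand Tgfb2 read -6.70, -6.18, -6.34 and -6.44 in control replicates 1 to 4 and -6.23, -5.97, -6.19 and -6.10 in high-fat replicates 1 to 4. Control replicate 2 was within the high-fat range, and the change was 0.29 (adjusted p = 0.39 by limma). The ligand Tgfb1 gave 0.031 with an interval from -0.58 to 0.64. The medians of these 3 lists were 0.11, -0.016 and -0.013.

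**Figure D4:**
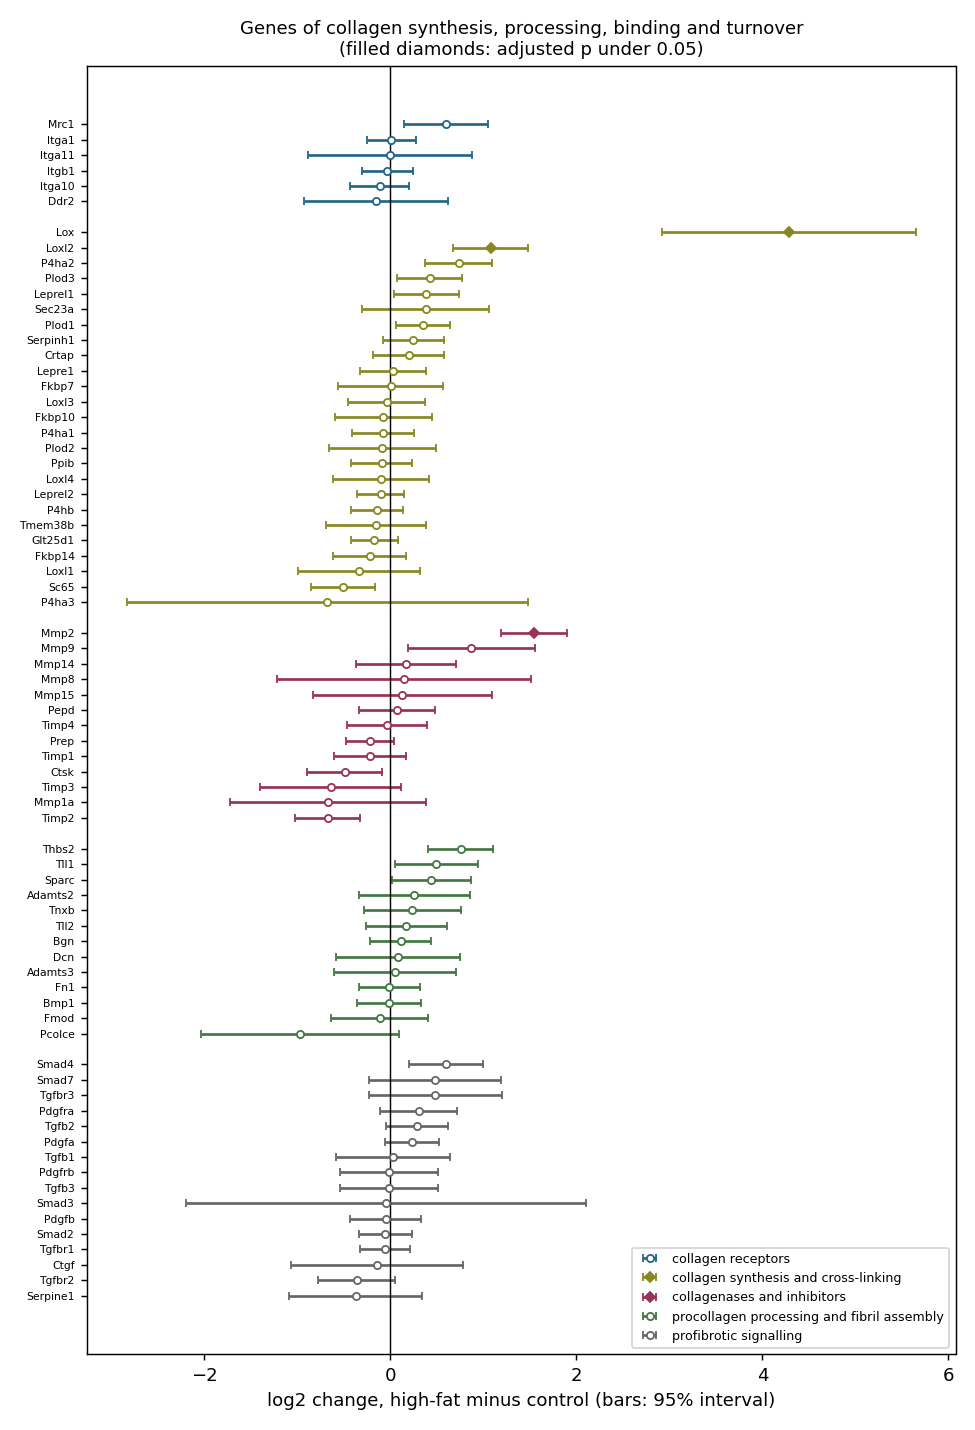
Log2 change, high-fat minus control, of each tested gene of 5 lists of collagen synthesis, processing, binding, turnover and signalling, with bars for the 95% interval and filled diamonds for an adjusted p under 0.05. Lox, Loxl2 and Mmp2 are the filled ones and lie to the right of 0, and the point of Lox rests on control arrays that were not well above background.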

How the data were processed

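The intensity values in the scanner files were made by the authors with Agilent Feature Extraction 10.7.3.1, per the file headers, with background subtraction, detrending within the array and surrogate values at dim spots. Per the labels' protocols, RNA extracted with TRIzol was primed with oligo-dT and labelled as Cy3 cRNA. The authors also deposited a table of log2 values, whose scaling is not given, and it served as an alternative: its values correlated with the scaled scanner values at r of at least 0.999 on each array, with medians of -3.21 to -3.10, so they are not centred by gene. Probe positions are those of the files, on rn4.

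Control spots and outlier spots were left out, and spots of a probe were averaged. None was saturated. From the log2 processed signal each array's 75th percentile was taken off, computed over probes that cleared background on all 8 arrays. The 31547 probes that did so on 4 or more were tested with limma 3.58.1 (lmFit, eBayes; R 4.3.3), and p-values were adjusted over all of them by Benjamini-Hochberg, with 0.05 as the threshold. The fit was also run on simulated data with independent noise. These hold no effects shared by an array or a slide row, so the run does not bear on such effects. The number of arrays limits the precision. Members, lists and tests were chosen with earlier results of these data known. Values per array are given for the 4 markers Col1a1, Col1a2, Col3a1 and Col4a1, for collagens with a probe past the threshold, for the 3 smallest p in each class and for related genes past the threshold or among the 2 smallest p of a list; Col18a1, Col16a1, Col12a1, Col6a1, Col6a3, P4ha2, Serpinh1 and Tgfb1 were added after their values were seen. Alternatives are given below.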

Additional observations from a re-analysis of the deposited data

Results flagged for a closer look

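Sets of 4 arrays were each 1 probe of a named gene, or the mean of 1 collagen class, in 1 diet. Of 54 such sets 6, all of them probes, held an array far from the other arrays of its diet by Dixon's test, where chance gives about 1 in 20. Values are normalized log2 intensities. For Col3a1, high-fat replicate 3 stood at 1.83, with the others from 1.03 to 1.17. Mmp2 was at -2.0 in the same array and at -2.54 to -2.52 in the others. The dim Col14a1 probe A_64_P093194 was at -4.85 in control replicate 3, with the others from -5.82 to -5.76, and at -5.39 in high-fat replicate 3, with the others from -4.77 to -4.67. Mrc1 was at -1.29 in high-fat replicate 4, with the others from -1.89 to -1.79. Timp2 was at 1.68 in control replicate 4, with the others from 1.95 to 2.01.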

How the results depend on the processing

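The count of collagen genes past the threshold, 0, became 1 with normexp background correction, 1 with array weights, 2 with only probes well above background on all 8 arrays, 2 with a variance trend and robust fit and 2 at an adjusted p under 0.1, and stayed at 0 to 0 with 1 array left out. The count of related genes, 3, became 0 with no filter, 0 without the 2 dimmest arrays, 0 with the replicate number as a block, 5 with the variance trend, 6 at 0.1, and 1 to 1 with 1 array left out. The median of the other collagens, -0.097, was 0.016 with array weights, 0.034 without the 2 dimmest arrays and -0.16 to 0.053 with 1 array left out (0.021 without high-fat replicate 1 and 0.053 without control replicate 2). With 1 array left out Col1a1 ran from -0.23 to 0.0088 (without control replicate 2), Col1a2 from -0.048 (without high-fat replicate 3) to 0.19, and Col4a4 from -0.42 to 0.0025 (without control replicate 2). Col4a4 was 0.016 with array weights and 0.12 without the 2 dimmest arrays, and Tgfb2 was -0.022 after normexp. The fibrillar median, 0.048, was 0.049 to 0.13 and the basement membrane median, 0.094, was -0.0030 to 0.23 with 1 array left out. The cause of these changes was not tested. Same-numbered arrays lie in the same slide row, but their deviations from the group means did not correlate above 0.1 in every pair (-0.12, 0.26, 0.23 and 0.012), so the numbers were not taken as pairs. With that block the adjusted p of the Col14a1 probe GT_Rn_GE_00142932 was 0.13 by limma. Dim probes, such as those of Col4a4 and Col24a1, limit what can be read of their genes.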

Other observations

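The untested Col9a1 probe A_64_P074649 read -1.73 on high-fat replicate 1 and -9.28 to -6.58 on the other 7 arrays, while the Col9a1 probe A_43_P16279, well above background on all 8 arrays, read -5.82 there. The untested Col24a1 probe A_44_P600286 read -4.78 on control replicate 1 and -10.17 to -6.33 on the other 7 arrays. Both were chosen after their values were seen.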
